A study of Mus musculus with 6 samples.

Results

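The p53 pathway genes described here are Trp53 itself, its paralog Trp73, and genes that p53 is known to switch on or that hold it in check, with Cdkn1a left out of the list. The list held 35 gene symbols, and each matched 1 row in each of the 6 deposited tables, out of 20637 genes per table. They were read by their roles: 8 genes for p53 and its regulators, 11 death genes, 5 DNA repair genes and 11 genes of stress response, growth control and metabolism. Values came from poly(A) RNA of the whole uterus of female mice on postnatal day 21. The controls were 3 libraries from Nat10 f/f mice, which carry floxed Nat10 alleles, and the other group was 3 libraries from Nat10 d/d mice, in which Nat10, an RNA cytidine acetyltransferase gene, was deleted. The labels name no Cre driver, no deleted exon and no cell type in which the deletion occurs, and do not say whether a library came from 1 animal or from a pool. They also do not say that replicates were separate animals, so p-values measure the spread between these libraries.

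The p53 protein is a transcription factor that cells keep at a low level. Mdm2 attaches ubiquitin to it and Mdm4 covers its activation domain, so p53 is largely controlled as a protein rather than through its own mRNA. When DNA is damaged, or when ribosome assembly fails and free ribosomal proteins bind Mdm2, p53 accumulates and switches on genes for cell cycle arrest, DNA repair, metabolic restraint and cell death, along with Mdm2, which closes a feedback loop. For this reason transcripts of its target genes are commonly read as a sign of its activity.

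Summed FPKM values ranged from 500764 to 549263 per library, and relative depth, estimated from the lowest values against control 1, ranged from 0.801 to 1.01. Absolute depth is unknown. Nat10 (ENSMUSG00000027185) was listed at 13.2, 16.4 and 9.95 FPKM in controls and at 5.57, 5.23 and 5.53 in deleted libraries, so each deleted library lay below each control (log2 change -1.11, SE 0.17, limma adjusted p 0.669). Uterine genes Esr1, Pgr, Hoxa10, Hoxa11 and Emx2 were present in every library, and of 6 ovarian genes Zp3 and Fshr were at 0 in all 6. The summed level of the ovarian genes was 29 to 30 FPKM in controls and 18.6 to 25 in deleted libraries, nearly all of it Foxl2, and its part in the member values was not tested. Nat10-deleted library 2 stood apart from the other deleted libraries. The summed FPKM of 10 proliferation genes was 431.7 there, against 105 and 73.9 in deleted libraries 1 and 3 and 119 to 192 in controls. Counts and the changes of most members are therefore also given without deleted library 2. The summed level of 6 stromal genes was 1902 to 2081 FPKM in controls and 1727 to 1801 in deleted libraries, and that of 5 endothelial genes was 195 to 224 and 162 to 194. Both sums were lower in each deleted library than in each control, but the stromal genes did not move together. Col1a1 was 677 to 765 FPKM in controls and 394, 984 and 361 in deleted libraries, and Dcn was 1033 to 1115 in controls and 1160, 646 and 1197 in the deleted ones. The part of these lists in the member values was not tested.

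In the RefSeq promoter windows of these genes, 250 bases before to 50 bases after the start, the 10-base p53 recognition motif was found in 10 of the 27 members that had a window, or 37% of them. Among all 27025 genes with a window the share was 9.55%. The motif reads the same on both strands, so a single scan covers both. With 1 mismatch allowed outside its central C and G, the shares were 74.1% and 54.2%. Most members are known p53 targets, some of them in part because of such motifs, so this share describes the list and was not tested. The members with the motif were Trp53, Mdm2, Ccng1, Rps27l, Bax, Aen, Ei24, Polk, Sesn1 and Ddit4l. A full p53 site is made of 2 such motifs side by side, and a second copy with at most 1 mismatch lay within 13 bases in Ccng1 and Rps27l, 2 of 27 members against 0.718% of all genes. The stretches below show the paired motif of Ccng1 and Rps27l and single motifs of Mdm2, Bax and Polk, a regulator, a death gene and a repair gene described below. These 5 genes were chosen after their values were seen. Capitals mark the motif. They are written 5′ to 3′ on the strand of the gene, in build GRCm38.p6 (mm10).

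Ccng1 (chr11:40755432-40755501, minus strand, motif from position -185, second copy from -195): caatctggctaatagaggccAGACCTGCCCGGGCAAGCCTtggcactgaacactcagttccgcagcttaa
Rps27l (chr9:66946276-66946345, plus strand, motif from position -107, second copy from -117): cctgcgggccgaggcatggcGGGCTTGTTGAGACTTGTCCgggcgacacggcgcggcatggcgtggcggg
Mdm2 (chr10:117710905-117710974, minus strand, motif from position -186): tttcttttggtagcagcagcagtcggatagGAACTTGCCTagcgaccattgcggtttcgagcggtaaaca
Bax (chr7:45467060-45467129, minus strand, motif from position -201): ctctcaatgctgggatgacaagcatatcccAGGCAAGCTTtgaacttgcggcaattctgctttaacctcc
Polk (chr13:96519379-96519437, minus strand, motif from position -231 of 1 of its windows): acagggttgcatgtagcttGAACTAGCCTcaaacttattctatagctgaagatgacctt

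Positions count back from the base before the RefSeq start, which is -1, and all 5 stretches lie outside exons annotated in GENCODE M21. In that annotation the stretches of Rps27l and Polk lie within the gene, between exons, and the other stretches lie before the gene. A match describes the letters and says nothing about binding in these uteri.

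**Figure D1:**
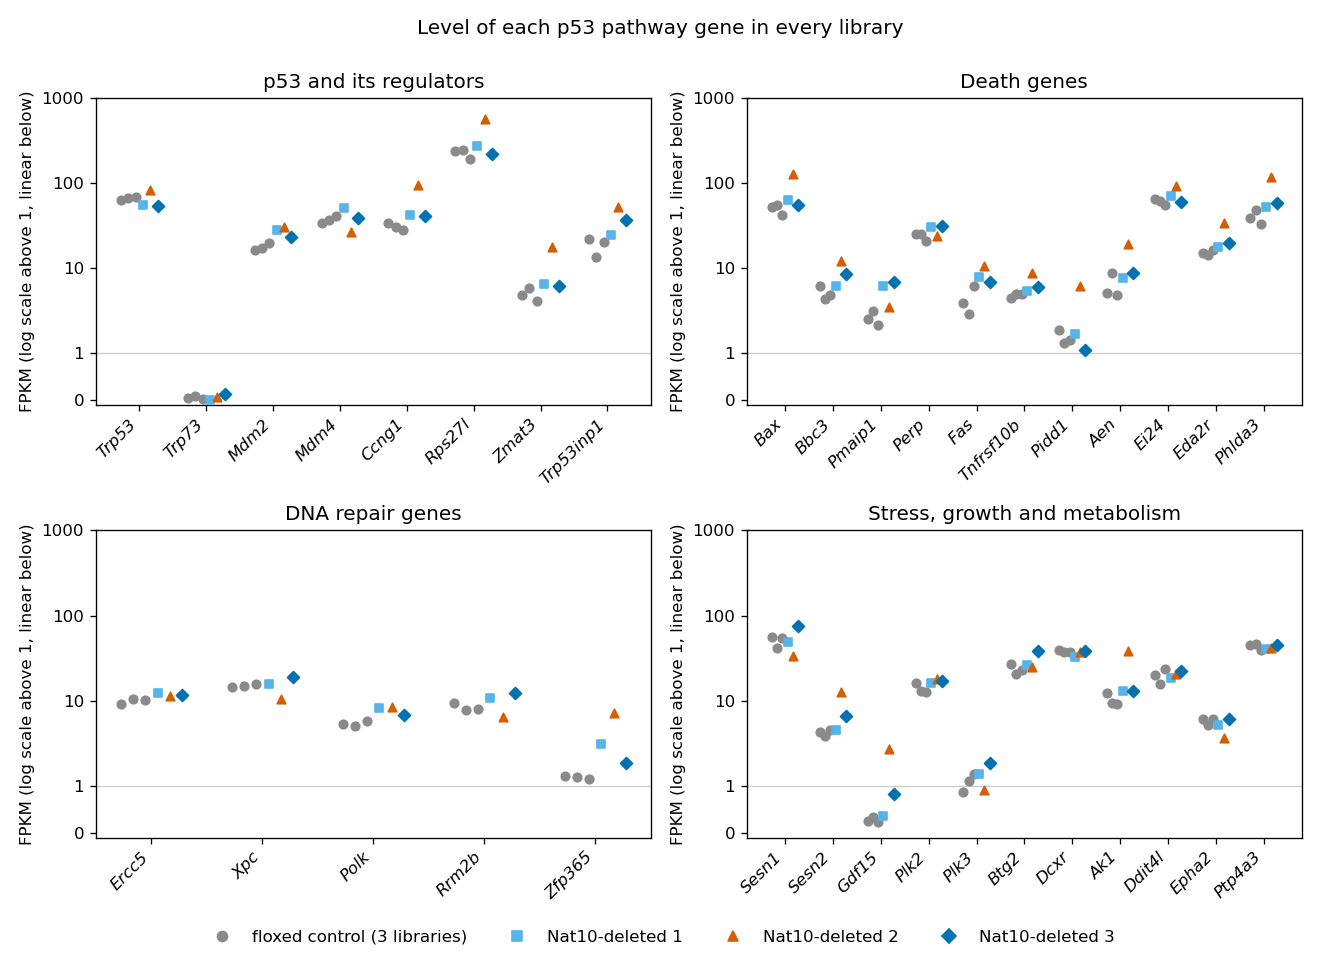
FPKM of each of the 35 p53 pathway genes in every library, in 4 panels by role; grey circles are the 3 controls, and the square, triangle and diamond are Nat10-deleted libraries 1, 2 and 3. The vertical axis is logarithmic above 1 and linear below, and levels run from 0 for Trp73 to 556.7 FPKM for Rps27l in deleted library 2.

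Most members had higher values in deleted uteri, and none passed the threshold over all genes. A gene was tested where it reached 1 FPKM in at least 3 libraries, which kept 33 members and 12640 genes in all. Trp73 and Gdf15 fell under this minimum, and no tested member owed its place to the deleted libraries alone. The groups were compared with limma on log2(FPKM + 1), and every change given here is the deleted mean minus the control mean on that scale, which understates the change of low genes. At an adjusted p of 0.05 the count was 0 of 33 members and 0% of all tested genes (the smallest adjusted p was 0.85 among members and 0.669 among all genes). Of the 33 members, 27 had a higher mean and 6 a lower mean in deleted uteri, and their median change was 0.44, against 0.03 over all tested genes. At an unadjusted p under 0.05, 10 members were higher and 0 lower, where the shares over all tested genes were 2.68% higher and 2.3% lower. In 14 members each deleted library lay above each control, or 42.4%, against 6.12% of all tested genes. No member lay below each control in all 3 deleted libraries, against 4.6% of all tested genes. With array quality weights in limma, which give noisier libraries less weight, 316 genes and 4 members were called: Mdm2 (change 0.63, adjusted p 0.0386), Pmaip1 (change 0.995, adjusted p 0.0386), Polk (change 0.51, adjusted p 0.0439) and Zfp365 (change 0.85, adjusted p 0.0483). All 4 were higher, where 1.16% of all tested genes were called higher and 1.34% lower. The weights of deleted libraries 1, 2 and 3 were 3.74, 0.224 and 0.451, so the deleted mean in this setting came mostly from library 1. Control weights were 1.15 to 1.92. For a single gene the exact two-sided permutation test cannot give a p below 0.1 with 3 libraries against 3, and each of these 14 genes gave 0.1.

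Without deleted library 2 the median change of the members was 0.30, with 28 higher and 5 lower, and the background over all tested genes was 0.02. No member was then called at an adjusted p of 0.05, where 0.0949% of tested genes were (12 genes, Cdkn1a among them), and the smallest adjusted p of a member was 0.075, for Pmaip1. At an unadjusted p under 0.05, 13 members were higher and 1, Trp53, was lower, with background shares of 7.09% and 6.57%. Both remaining deleted libraries lay above each control in 17 members, against 17.4% of tested genes, and below each control in 1, Trp53, against 14.4%. In whole tissue, a difference in the number of cells of a type and a difference in RNA per cell cannot be told apart.

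**Figure D2:**
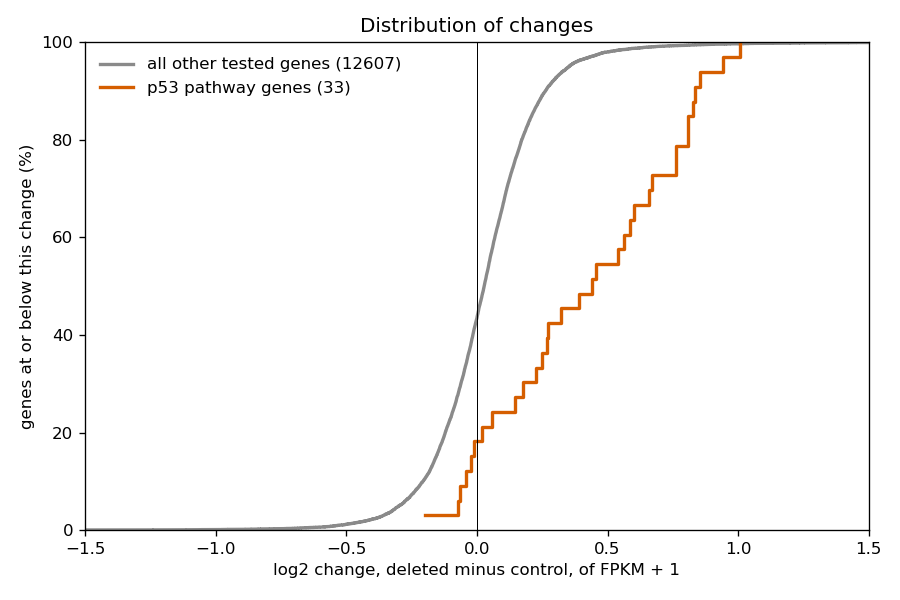
Cumulative distribution of the log2 change of FPKM + 1, deleted minus control, for the 33 tested p53 pathway genes and for all other tested genes. The member curve lies to the right, with a median of 0.44, and 27 of the 33 genes lie above 0.

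Among the regulators, Mdm2, Ccng1, Zmat3 and Trp53inp1 were above each control in all 3 deleted libraries, while Trp53 and Mdm4 themselves were not. These are 4 of the 7 tested regulators, against 6.12% of all tested genes. The median change of the regulators was 0.59, and 0.32 without deleted library 2. Trp53 mRNA was abundant, at 63, 65.3 and 67.6 FPKM in controls. In deleted libraries it was 55.2, 83.1 and 52.9, so that libraries 1 and 3 lay below the controls and library 2 above them. Its mean change was -0.07 (SE 0.18), and -0.27 (SE 0.10) without deleted library 2, with a limma adjusted p of 0.293.

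Mdm2 (ENSMUSG00000020184), the ubiquitin ligase that is both inhibitor and target of p53, was 16.2, 17.2 and 19.6 FPKM in controls and 27.9, 30.1 and 23.2 in the deleted libraries. The 3 deleted libraries were close together and all were higher than the controls. The mean was 1.54 times that of controls, a log2 change of 0.59 (SE 0.13, limma adjusted p 0.85), and 0.51 without deleted library 2. Mdm2 was thus among the members whose difference rested least on that library. Mdm4, the related inhibitor that lacks effective ligase activity, was 33.3, 36.6 and 40.4 FPKM in controls. It was highest of all in deleted library 1, at 50.2, lowest of all in library 2, at 26.4, and within the control range in library 3, at 38.5. Its mean change was 0.02 (SE 0.22), with a negative sign after median centring (-0.01).

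Ccng1 (cyclin G1), which brings a phosphatase to Mdm2, was 34, 30.3 and 27.6 FPKM in controls and 41.2, 94.8 and 40.4 in deleted libraries. Libraries 1 and 3 were alike and moderately above the controls, and library 2 was far above both. The change was 0.81 (SE 0.31) with all libraries and 0.41 (SE 0.12) without library 2. Zmat3, an RNA-binding zinc finger protein, followed the same order. It was 4.78, 5.81 and 4.08 FPKM in controls and 6.53, 17.4 and 6.08 in deleted libraries, a change of 0.76 (SE 0.35) that became 0.32 without library 2. Trp53inp1, a nuclear protein induced by stress, was 21.7, 13.5 and 20.4 FPKM in controls. In deleted libraries it was 24.6, 51.2 and 36, and here library 3 also stood clear of the controls. Its change was 0.94 (SE 0.28), and 0.69 (SE 0.23) without library 2.

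Rps27l, a ribosomal protein paralog that acts on Mdm2 and p53, had the highest level of the 35 genes. It was 233.6, 241 and 189 FPKM in controls and 269.6, 556.7 and 219.6 in deleted libraries, so the groups overlapped at library 3. Its change of 0.54 (SE 0.32) became 0.14 (SE 0.14) without library 2. Its sequence is close to that of Rps27, and how the authors' quantification divided reads between them is not given in the sources used here. Trp73 was at most 0.126 FPKM in any library and was not tested.

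The 11 death genes had higher means in deleted uteri without exception, with changes from 0.25 to 0.85 and a median of 0.60. In 6 of them, Fas, Pmaip1, Phlda3, Bbc3, Eda2r and Tnfrsf10b, the groups did not overlap, where 6.12% of all tested genes had each deleted library above each control. Without deleted library 2 the median was 0.37, Pidd1 had a lower mean (-0.09), and 7 of the 11 had both remaining deleted libraries above each control, against 17.4% of all tested genes.

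The mitochondrial death genes differed in which library was high. Pmaip1 (Noxa), a small BH3-only protein that neutralises Mcl1, was 2.5, 3.08 and 2.13 FPKM in controls. It was 6.15 and 6.78 in deleted libraries 1 and 3 but only 3.46 in library 2, just above the highest control. This order was the reverse of that seen for most members. The change was 0.83 (SE 0.23) with all libraries and 1.07 (SE 0.16, limma adjusted p 0.075) without library 2. Bbc3 (Puma), the other BH3-only protein of the list, was 6.1, 4.36 and 4.84 FPKM in controls and 6.11, 12 and 8.46 in deleted libraries. Library 1 thus exceeded the highest control by a very small margin, while libraries 2 and 3 were clear of it. Its change was 0.66 (SE 0.23), and 0.44 without library 2. Bax, a pore-forming protein, was 51.7, 55.2 and 42.1 FPKM in controls and 62, 127 and 54.2 in deleted libraries. Library 3 lay inside the control range, and the change of 0.60 (SE 0.30) became 0.23 (SE 0.14) without library 2. Of the exonic bases of Bax, 12.2% also belong to Gm45808, annotated on the same strand.

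Of the receptors among the death genes, Fas was 3.87, 2.86 and 6.15 FPKM in controls and 7.87, 10.4 and 6.84 in the deleted libraries. The groups did not overlap, although control 3 was close to deleted library 3. Its change was 0.85 (SE 0.25), and 0.70 (SE 0.24) without library 2. The summed level of 8 leukocyte genes, cells that also express Fas, was 50.8 to 86.6 FPKM in controls and 52.6 to 83.5 in deleted libraries, and the ranges overlapped. C1qa alone made up 26.8 to 46 FPKM of this sum in controls and 27.7 to 50.7 in deleted libraries. The part of leukocytes in the Fas values was not tested. Tnfrsf10b, the mouse TRAIL receptor, was 4.47, 4.86 and 4.93 FPKM in controls and 5.32, 8.66 and 6 in deleted libraries, a change of 0.39 (SE 0.17). Eda2r, a receptor for ectodysplasin A2, was 14.8, 14 and 16.3 FPKM in controls and 17.5, 33.8 and 19.5 in deleted libraries. Both receptors were above each control throughout and highest in library 2, and without that library their changes were 0.21 and 0.29.

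Phlda3, a pleckstrin homology protein that competes with Akt for membrane lipids, was 38.5, 48.4 and 32.5 FPKM in controls and 51.8, 118 and 57.8 in deleted libraries. Each deleted library was above each control, with library 1 close to control 2. The change was 0.84 (SE 0.31) and became 0.47 (SE 0.17) without library 2. Aen, a nuclease of dying cells, was 5.1, 8.67 and 4.85 FPKM in controls and 7.68, 18.9 and 8.76 in deleted libraries, where library 1 lay inside the control range (change 0.76, SE 0.34, and 0.39 without library 2). Pidd1, which builds the caspase-2 platform, was 1.85, 1.32 and 1.42 FPKM in controls. Only deleted library 2, at 6.1, stood apart, while library 1 was 1.68 and library 3, at 1.09, was the lowest of the 6.

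Perp, a membrane protein of desmosomes, was 25.1, 25.3 and 20.5 FPKM in controls and 30.4, 23.8 and 30.8 in deleted libraries. Like Pmaip1 it was higher in libraries 1 and 3 than in library 2, which lay inside the control range. The change was 0.25 (SE 0.14), and 0.37 (SE 0.12) without library 2. Perp is expressed by epithelium, and the summed level of 6 epithelial genes was 547.1 to 650.1 FPKM in controls and 607.7 to 707.6 in deleted libraries; its part in the Perp values was not tested. Ei24, an endoplasmic reticulum protein, was 54.9 to 64.4 FPKM in controls and 69.8, 90.6 and 59.8 in deleted libraries (change 0.27, SE 0.16, and 0.11 without library 2).

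**Figure D3:**
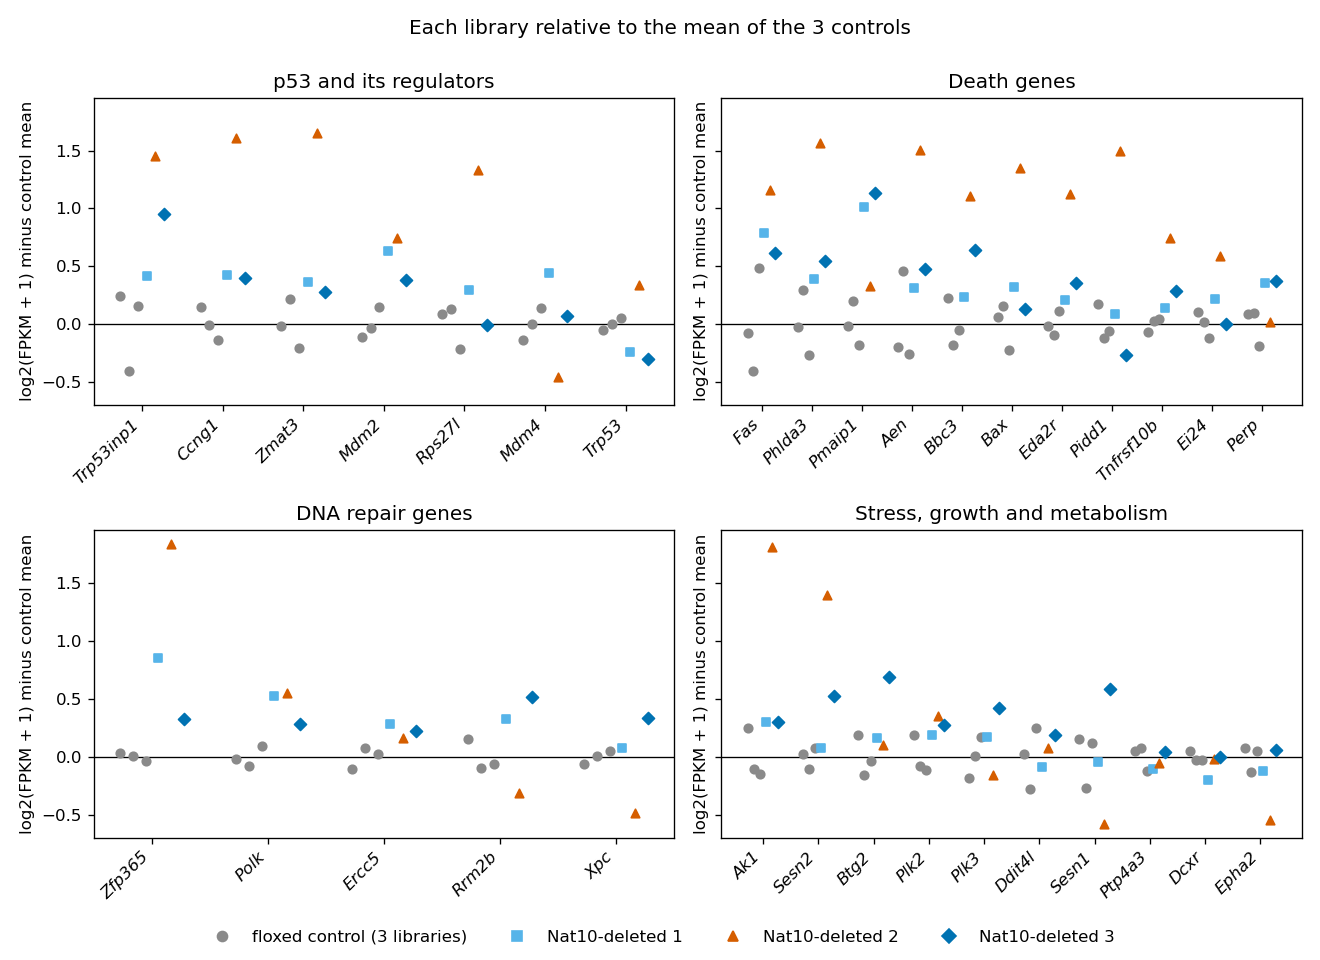
log2(FPKM + 1) of each tested member minus the mean of the 3 controls, in 4 panels by role, with grey circles for controls and the square, triangle and diamond for Nat10-deleted libraries 1, 2 and 3. Deleted library 2 is the highest of the 6 libraries in 20 of the 33 genes and the lowest in 5, which are Mdm4, Xpc, Rrm2b, Sesn1 and Epha2.

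The 5 repair genes were above each control in both deleted library 1 and deleted library 3, as were 17.4% of all tested genes. In library 2 they divided: Ercc5, Polk and Zfp365 were above each control, and Xpc and Rrm2b were below each control. Of all 12640 tested genes, 4849 were above each control in that library and 4181 were below. Ercc5, Polk and Zfp365 were thus above each control in all 3 deleted libraries, against 6.12% of all tested genes. The median change was 0.23 with all libraries and 0.41 without library 2.

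Polk (ENSMUSG00000021668), a DNA polymerase that copies past damaged bases, was 5.3, 5.04 and 5.81 FPKM in controls and 8.19, 8.34 and 6.76 in the deleted libraries. The deleted values were close together and all higher, with a change of 0.45 (SE 0.13, limma adjusted p 0.922) that was 0.41 without library 2. Ercc5 (XPG), the endonuclease that cuts beside bulky damage, showed a small and even difference. It was 9.17, 10.5 and 10.1 FPKM in controls and 12.3, 11.2 and 11.8 in deleted libraries, a change of 0.23 (SE 0.11). Zfp365, a zinc finger protein linked to the stability of fragile sites and telomeres, was low and even in controls at 1.31, 1.27 and 1.2 FPKM. In deleted libraries it was 3.1, 7.09 and 1.84, each above the controls. Its change was 1.01 (SE 0.35, limma adjusted p 0.922), and 0.59 (SE 0.20) without library 2, where Pmaip1, Fas and Trp53inp1 had larger changes.

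Xpc, which recognises distorted DNA in nucleotide excision repair, was 14.3, 15 and 15.5 FPKM in controls. It was 15.8 and 19.2 in deleted libraries 1 and 3 and 10.4 in library 2, so its mean change was -0.02 with all libraries, 0.21 without library 2 and 0.08 with array quality weights. Rrm2b, the p53-induced subunit of ribonucleotide reductase, was 9.28, 7.67 and 7.9 FPKM in controls and 10.6, 6.44 and 12.2 in deleted libraries. It again had libraries 1 and 3 above the controls and library 2 below. The change was 0.18 (SE 0.22), and 0.42 (SE 0.13) without library 2. Of the exonic bases of Rrm2b, 8.04% are overlapped by an antisense gene, Gm49085.

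The stress, growth and metabolism genes had a median change of 0.10 over the 10 tested, and 0.25 without deleted library 2. No difference between roles was tested. Of these 10, 1 gene, Ak1, had each deleted library above each control, against 6.12% of all tested genes. It encodes a cytosolic adenylate kinase and was 12.3, 9.45 and 9.13 FPKM in controls and 12.9, 38.6 and 12.9 in deleted libraries. Libraries 1 and 3 were barely above control 1, and the change of 0.81 (SE 0.39) became 0.31 (SE 0.14) without library 2.

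The sestrins restrain mTORC1. Sesn2 was 4.3, 3.83 and 4.49 FPKM in controls and 4.49, 12.7 and 6.51 in deleted libraries, with library 1 level with the highest control (change 0.67, SE 0.31, and 0.30 without library 2). Sesn1 was more abundant, at 56, 41.5 and 54.5 FPKM in controls, and was 48.7, 33.3 and 75.7 in deleted libraries. Deleted library 2 was thus the highest for Sesn2 and the lowest for Sesn1, and the mean change of Sesn1 was -0.01 (SE 0.28), and 0.27 without library 2. Sesn3, outside the 35 genes, was named after its values were seen. It was 20.8 to 26.2 FPKM in controls and 10.1, 20.7 and 21.4 in deleted libraries. Its change was -0.50, and -0.17 without deleted library 1. With array quality weights, where that library had the most weight, the change was -1.03. No difference between the sestrins was tested. Sesn2 and Gdf15 are also targets of the integrated stress response, and the summed level of 8 genes of that response was 249 to 319.6 FPKM in controls and 274.5 to 373.5 in deleted libraries, highest in library 2. Its part in the values of both genes was not tested.

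Gdf15, a secreted stress cytokine, was 0.26, 0.341 and 0.24 FPKM in controls and 0.35, 2.72 and 0.83 in deleted libraries. All deleted values were above the controls, but only that of library 2 exceeded 1 FPKM, and the gene was not tested.

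Btg2, an antiproliferative cofactor, was 26.7, 20.7 and 22.6 FPKM in controls and 26.1, 25.1 and 38.2 in deleted libraries, so only library 3 left the control range. Plk3, a polo-like kinase, was 0.868, 1.14 and 1.39 FPKM in controls and 1.39, 0.902 and 1.84 in deleted libraries, with library 3 again the highest. The related kinase gene Plk2 was 12.7 to 15.9 FPKM in controls and 15.9, 18 and 17 in deleted libraries (change 0.27, SE 0.12). Btg2, Plk2 and Plk3 also respond early to growth factors and handling. The summed level of 8 immediate early genes was 146 to 155 FPKM in controls and 146, 135 and 216.6 in deleted libraries 1, 2 and 3. This sum, Btg2 and Plk3 were highest in library 3, while Plk2 was highest in library 2, where the sum was lowest. Its part in these values was not tested.

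The remaining members overlapped between groups. Epha2, an ephrin receptor, was 6.14, 5.2 and 6.04 FPKM in controls and 5.24, 3.65 and 6.08 in deleted libraries. Its change was -0.20 (SE 0.18), and -0.03 without library 2. Dcxr, a carbonyl reductase, was 37.2 to 39.3 FPKM in controls and 32.9 to 37.9 in deleted libraries (change -0.07). Ddit4l, an inhibitor of mTORC1, was 15.9 to 23.4 and 18.2 to 22.3 FPKM (change 0.06, and -0.06 with array quality weights), and Ptp4a3, a phosphatase, was 39.8 to 45.9 and 40.3 to 44.7 FPKM (change -0.04).

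**Figure D4:**
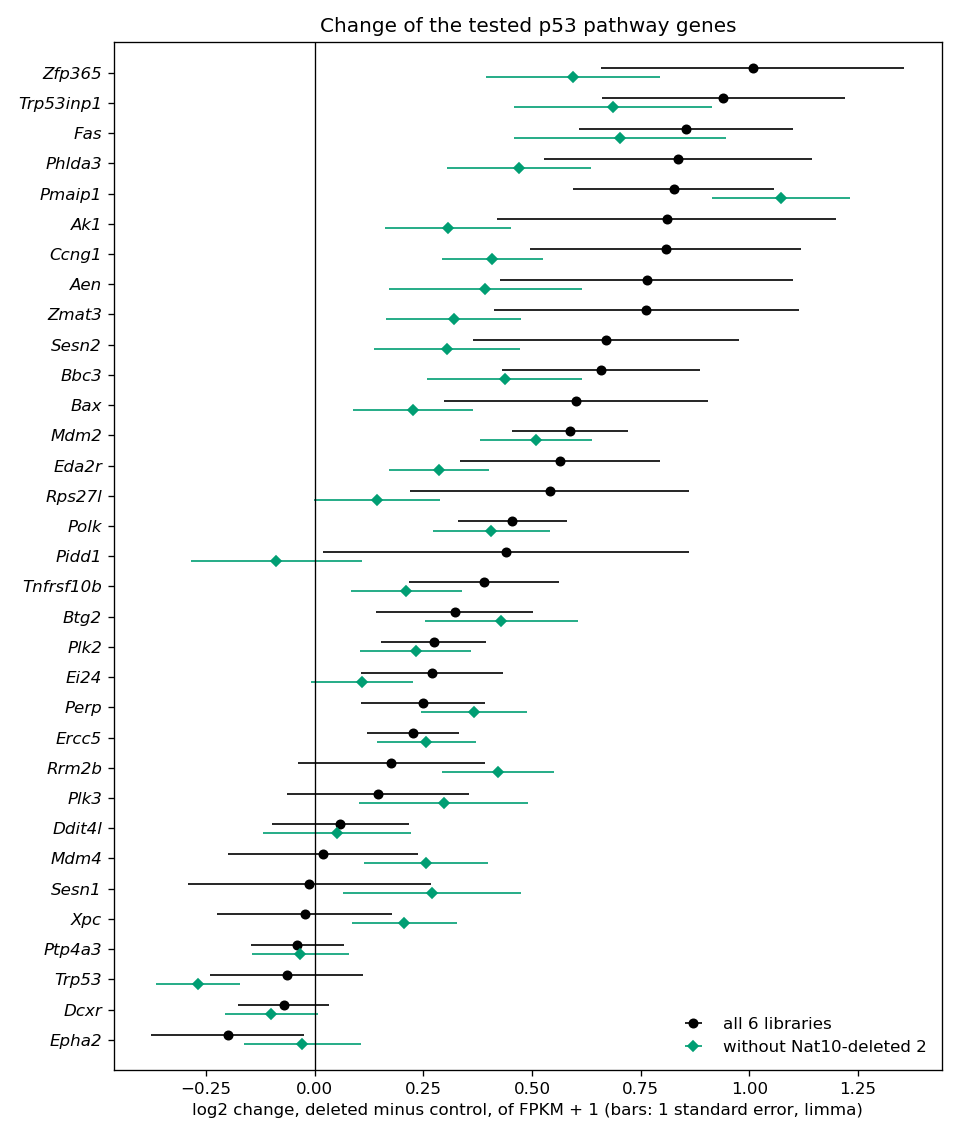
log2 change of FPKM + 1, deleted minus control, of the 33 tested members with all 6 libraries (black circles) and without Nat10-deleted library 2 (green diamonds), with bars of 1 standard error from limma. Mdm2 and Polk move little, at 0.59 and 0.51 and at 0.45 and 0.41, Pmaip1 is larger without library 2, and Pidd1, Xpc and Sesn1 change sign.

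Each deleted library was also set against the controls by role. As medians of log2(FPKM + 1) minus the control mean, the regulators were at 0.42, 1.33 and 0.28 in deleted libraries 1, 2 and 3, and the death genes at 0.31, 1.12 and 0.38. Both groups were thus above the controls in all 3, with library 2 by far the highest. The repair genes were at 0.33, 0.17 and 0.33, with library 2 the lowest of the deleted libraries. The stress, growth and metabolism genes were at 0.02, 0.03 and 0.29, and only library 3 left the control range of -0.10 to 0.06. Over all tested genes the medians were between 0.01 and 0.03 in deleted libraries. Library 2 was the highest of the 6 libraries in 60.6% of tested members and in 30.1% of all tested genes. The high level of proliferation genes in library 2 went with these values, and its part in them was not tested.

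**Figure D5:**
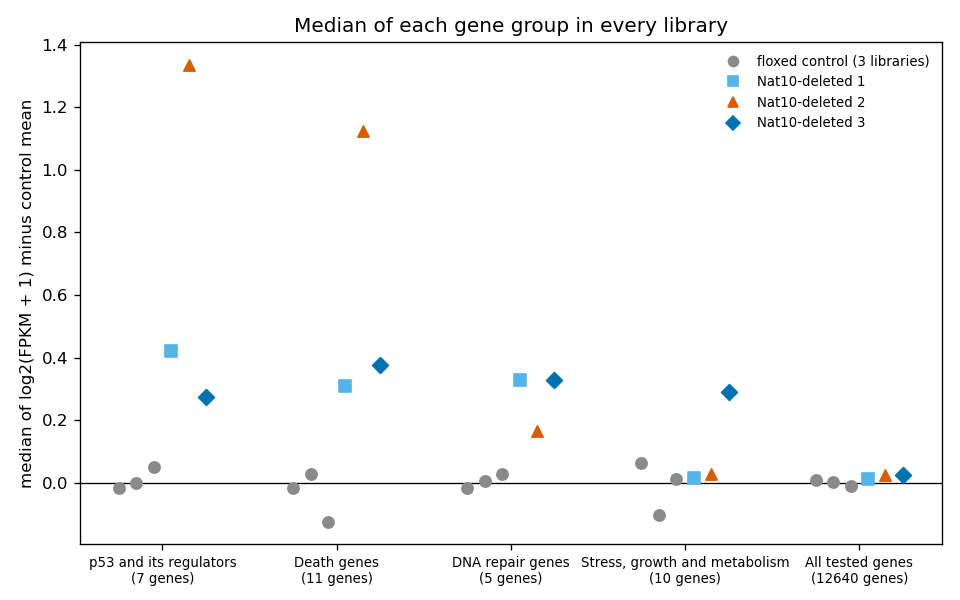
Median over the tested genes of each role of log2(FPKM + 1) minus the mean of the 3 controls, 1 point per library, with all tested genes on the right for comparison. Regulators and death genes reach 1.33 and 1.12 in Nat10-deleted library 2 (triangle), while repair genes are at 0.33 in libraries 1 and 3 and 0.17 in library 2.

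Other genes of the p53 pathway were read from a separate list. Of 11 upstream genes measured, 9 were tested, 6 with a higher and 3 with a lower mean, and their median change was 0.09. Without deleted library 2, 5 were higher and 4 lower, with a median of 0.05. At an unadjusted p under 0.05, where 2.68% of all tested genes were higher, there was 1 higher, Rchy1, which encodes another ubiquitin ligase of p53, at 25 to 27.1 FPKM in controls and 33, 36 and 29.8 in deleted libraries (change 0.33, SE 0.11). Trp53bp1, a damage-site scaffold, was 14.7 to 17.1 FPKM in controls and 13.9 to 14.1 in deleted libraries (change -0.16, SE 0.10). Usp7, which removes ubiquitin from Mdm2 and p53, was 31 to 36.7 FPKM in controls and 35.9 to 37.9 in deleted libraries (change 0.16, SE 0.11). Cdkn2a, whose Arf product restrains Mdm2, was at most 0.402 FPKM in any library.

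Of 27 further downstream genes, all tested, 19 had a higher and 8 a lower mean, with a median change of 0.16. Without deleted library 2, 13 were higher and 14 lower, with a median of -0.02. At an unadjusted p under 0.05, 2 were higher and 1 lower, against 2.68% and 2.3% of all tested genes. Without deleted library 2 these counts were 3 and 4, against 7.09% and 6.57%. Cdkn1a (p21), the cell cycle inhibitor, was 3.68, 7.23 and 6.27 FPKM in controls and 33.9, 116 and 43.4 in deleted libraries. Its change of 3.11 (SE 0.44) had a limma adjusted p of 0.669, and deleted library 2 was again the highest. Without that library the change was 2.59, with a limma adjusted p of 0.0271. Ddb2, a damage sensor that acts with Xpc, was 9.52, 8.63 and 10.2 FPKM in controls and 14.4, 10.8 and 13.6 in deleted libraries. Like Ercc5, Xpc and Rrm2b, and unlike Polk and Zfp365, it was higher in libraries 1 and 3 than in library 2 (change 0.41, SE 0.14, and 0.52 without library 2). Steap3, a ferrireductase, went the other way, at 81.2, 53.9 and 75.5 FPKM in controls and 28.9, 49.4 and 29.1 in deleted libraries (change -0.98, SE 0.24, and -1.22 with a limma adjusted p of 0.0703 without library 2). With array quality weights, 5 of the 36 other pathway genes tested were called, where 1.16% of all tested genes were called higher and 1.34% lower. Deleted library 1 had the most weight in this setting (3.74, against 0.224 and 0.451 for deleted libraries 2 and 3). Cdkn1a (2.62) and Ddb2 (0.53) were higher, and Steap3 (-1.23), Sesn3 (-1.03) and Fdxr (-0.84) were lower, with limma adjusted p from 0.0275 to 0.047. Fdxr was 4.76 to 5.59 FPKM in controls and 2.25, 5.47 and 4.02 in deleted libraries, so library 2 lay inside the control range. Without weights its change was -0.40 (limma adjusted p 0.922), with -0.13 when deleted library 1 was left out and -0.63 without library 2. No difference between these lists and the members was tested.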

How the data were processed

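Per the submitters' processing notes, reads were processed with HISAT2 2.2.1 and Cufflinks 2.2.1 on mm10. The authors deposited 1 value per gene and library, taken here as FPKM, that is, fragments scaled by transcript length and library size; the file headers name no unit, and annotation, parameters and strand setting are not given in the sources used here. Values were joined by Ensembl identifier, of which 99.7% were in GENCODE M21. They were analysed as log2(FPKM + 1) with limma 3.58.1 in R 4.3.3 (mean-variance trend, group as the only term) over 12640 genes with at least 1 FPKM in at least 3 libraries. P-values are two-sided and Benjamini-Hochberg adjusted over all tested genes. The fit was tested on simulated data. Alternatives changed the scaling, filter, pseudocount, trend and weights, added a replicate block or left out a library.

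Every member is named. A member has its value in each library where groups did not overlap, its unadjusted p was under 0.05 or its change was extreme for its role; some further members are also given in full. Members, roles and lists were chosen with earlier results of these data known. The paired motif was added after the promoter windows were seen. Cop1 was on the list of upstream genes but was matched to no gene by symbol or identifier, so it was not used. Promoters came from RefSeq, GRCm38.p6; Trp53inp1, Zmat3, Pmaip1, Perp, Tnfrsf10b, Xpc, Rrm2b and Ptp4a3 had none. Python 3.11.15, pandas 2.3.3, numpy 2.4.6 and matplotlib 3.10.9 joined the tables and drew the figures.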

Additional observations from a re-analysis of the deposited data

How the results depend on the processing

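Of the 14 other settings, 8 changed the processing and 6 left out a library each. The number of genes called was 316 with array quality weights, with 3730 at an unadjusted p under 0.05 and 4 members called (Mdm2, Pmaip1, Polk and Zfp365); the median change of the members was then 0.288. These weights gave 3.74, 0.224 and 0.451 to deleted libraries 1, 2 and 3. With the replicate block, 0 genes were called and the members' median change was 0.439, with 13 members and 726 genes at an unadjusted p under 0.05, and the block changed no call. The labels do not say whether equal replicate numbers mark pairs. Deviations of same-numbered libraries correlated at -0.341, -0.029 and 0.1, and those of differently numbered libraries at -0.244 to 0.273. With 3 libraries a group, these values cannot decide whether libraries were paired. Leaving out a library gave 0 to 12 called genes, 352 to 1726 at an unadjusted p under 0.05, and 5 to 15 members at that level; the members' median ranged from 0.297 to 0.539, that of regulators from 0.32 to 0.813, that of death genes from 0.366 to 0.741, that of repair genes from 0.195 to 0.406 and that of stress, growth and metabolism genes from 0 to 0.251. The count of genes at an unadjusted p under 0.05 was 359 without control 1, 353 without control 3, 352 without deleted library 1, 1726 without deleted library 2 and 1403 without deleted library 3, against 630 with all. Of these 6 settings, only the one without deleted library 2 called genes, and 5 members were at an unadjusted p under 0.05 without control 3. The cause was not tested. Some single genes changed sign. Mdm4 was at -0.01 after median centring and -0.021 after quantile normalization, and Xpc at 0.082 and Ddit4l at -0.059 with array quality weights. Over left-out libraries Mdm4 ranged from -0.195 to 0.256, Sesn1 from -0.311 to 0.27, Xpc from -0.205 to 0.206, Ddit4l from -0.08 to 0.186, Trp53 from -0.269 to 0.052 and Pidd1 from -0.089 to 0.793. With 3 libraries a group and unknown absolute depth, counting error could not be given.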
